A study of Rattus norvegicus with 6 samples.

Results

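The genes described here are 10 members of the bone morphogenetic protein (BMP) pathway: the ligands Bmp2, Bmp4 and Bmp7, the target genes Id1, Id2 and Id3, the inhibitory Smads Smad6 and Smad7, and the secreted antagonists Grem1 and Nog. They were taken by name, from a list proposed with results of this comparison known, with every array probe set that the platform annotation gives to one of them alone, which made 17 probe sets for 10 of the 14217 genes named on the array. The probe set that stands for a gene was chosen by its measured brightness, the highest mean over the 6 arrays, and the others are given beside it. RNA came from mammospheres, floating spheres grown for 7 days from epithelium-enriched single cells of rat mammary glands 4 and 5. The hCG group was grown from female Sprague Dawley rats that had received recombinant human chorionic gonadotropin, 100 IU per day by intraperitoneal injection for 21 days from 55 days of age, with glands removed 21 days after the last dose. The Control group came from rats of the same sex, strain and age injected with phosphate buffered saline on the same schedule. Both groups had 3 arrays, numbered 5, 6 and 7. Spheres of both groups grew in medium with EGF, basic FGF and heparin. The design names hCG as given to the animals, so the comparison is of spheres formed after that exposure had ended.

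BMPs are secreted growth factors that bind paired type I and type II serine/threonine kinase receptors, which phosphorylate Smad1, Smad5 and Smad9; these join Smad4 and enter the nucleus. The Id genes are among their most direct targets, and they encode helix-loop-helix proteins without a DNA-binding basic region, which hold back differentiation factors by pairing with them. Smad6 and Smad7 are induced by the pathway and block its receptors, while gremlin (Grem1) and noggin (Nog) bind the ligands outside the cell. In the mouse mammary gland, BMPs take part in exchange between epithelium and mesenchyme as the gland forms, and Id2 is needed for alveolar growth in pregnancy.

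The promoters of the 3 Id genes are shown because Id1 and Id2 had changes of opposite sign in the data below. They are RefSeq sequences of the rat build GRCr8, from 250 bases before to 50 bases after the annotated start, written 5′ to 3′, with motif matches in capitals.
Id1 promoter, chr3:161671314-161671613, plus strand: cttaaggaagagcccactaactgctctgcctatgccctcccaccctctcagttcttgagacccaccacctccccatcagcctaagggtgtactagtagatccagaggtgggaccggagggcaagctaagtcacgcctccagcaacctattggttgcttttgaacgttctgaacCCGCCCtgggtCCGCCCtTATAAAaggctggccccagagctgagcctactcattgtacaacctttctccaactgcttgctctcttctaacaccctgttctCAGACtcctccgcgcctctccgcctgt
Id2 promoter, chr6:47470946-47471245, minus strand: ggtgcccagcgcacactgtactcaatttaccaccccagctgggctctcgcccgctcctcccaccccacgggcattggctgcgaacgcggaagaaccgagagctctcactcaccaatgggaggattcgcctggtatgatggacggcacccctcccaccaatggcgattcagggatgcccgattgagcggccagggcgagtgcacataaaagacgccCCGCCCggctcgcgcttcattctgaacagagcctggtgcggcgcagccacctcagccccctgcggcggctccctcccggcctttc
Id3 promoter, chr5:153656041-153656340, plus strand: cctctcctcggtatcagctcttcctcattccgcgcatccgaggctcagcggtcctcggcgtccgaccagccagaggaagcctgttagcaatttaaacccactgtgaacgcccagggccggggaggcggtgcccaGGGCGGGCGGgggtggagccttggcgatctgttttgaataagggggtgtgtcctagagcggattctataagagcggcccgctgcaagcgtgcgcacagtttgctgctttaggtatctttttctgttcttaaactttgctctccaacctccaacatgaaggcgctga
Capitals mark CAGAC, the short Smad-binding box, TATAAA, the TATA box, and GGGCGG, the GC box, each searched on both strands, as was GGCGCC, a GC-rich site of BMP Smads. Id1 holds one CAGAC at position 24 after the start, one TATAAA at position -59 and a GGGCGG on the opposite strand at -77 and at -66. Id2 holds a single GGGCGG on the opposite strand at -35, and Id3 holds a pair of overlapping GGGCGG at -116 and -112. None of the 3 windows holds GGCGCC, and those of Id2 and Id3 hold neither CAGAC nor TATAAA. Over the 33469 rat promoters of the same length, 50.1% hold CAGAC, 33.1% GGGCGG, 14.2% TATAAA and 11.0% GGCGCC, so these matches are a description of the windows. Of the 10 genes, 7 had a promoter entry.

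Bmp2, Id1, Id3, Smad7 and Grem1 averaged lower in hCG spheres than in Control spheres, by between 1.60-fold and 4.25-fold, and Id2 averaged 1.40-fold higher. Of these, Id1 alone passed the gene test, which makes 1 of 8 tested members called, lower in hCG. Over all 10424 tested genes 1.82% were called, 0.815% as lower and 1.01% as higher. The test was limma's moderated test on log2 values with Benjamini-Hochberg adjustment over all tested genes, at an adjusted p under 0.05. The dimmest 40% of probe sets, below a mean log2 level of 2.67, were not tested, and Bmp4 and Nog were among them. The groups did not overlap in 4 of the 8 tested members, Bmp2, Id1, Id2 and Smad7, against 31.6% of all tested genes; 3 of them were lower in hCG (12.3% of all genes) and 1 was higher (19.3%). The median log2 change of the 8 was -0.71, against 0.03 over all tested genes, and 7 of the 8 lay below 0, as did 44.2% of all. Because the list was proposed with results of this comparison known, these counts and the median are a description and no test of the list. Nothing states that the 3 arrays of a group come from separate animals, so the spread behind each p-value is that between samples and may be technical. RNA of whole spheres was measured, so fewer cells of a type and less RNA per cell cannot be told apart.

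**Figure D1:**
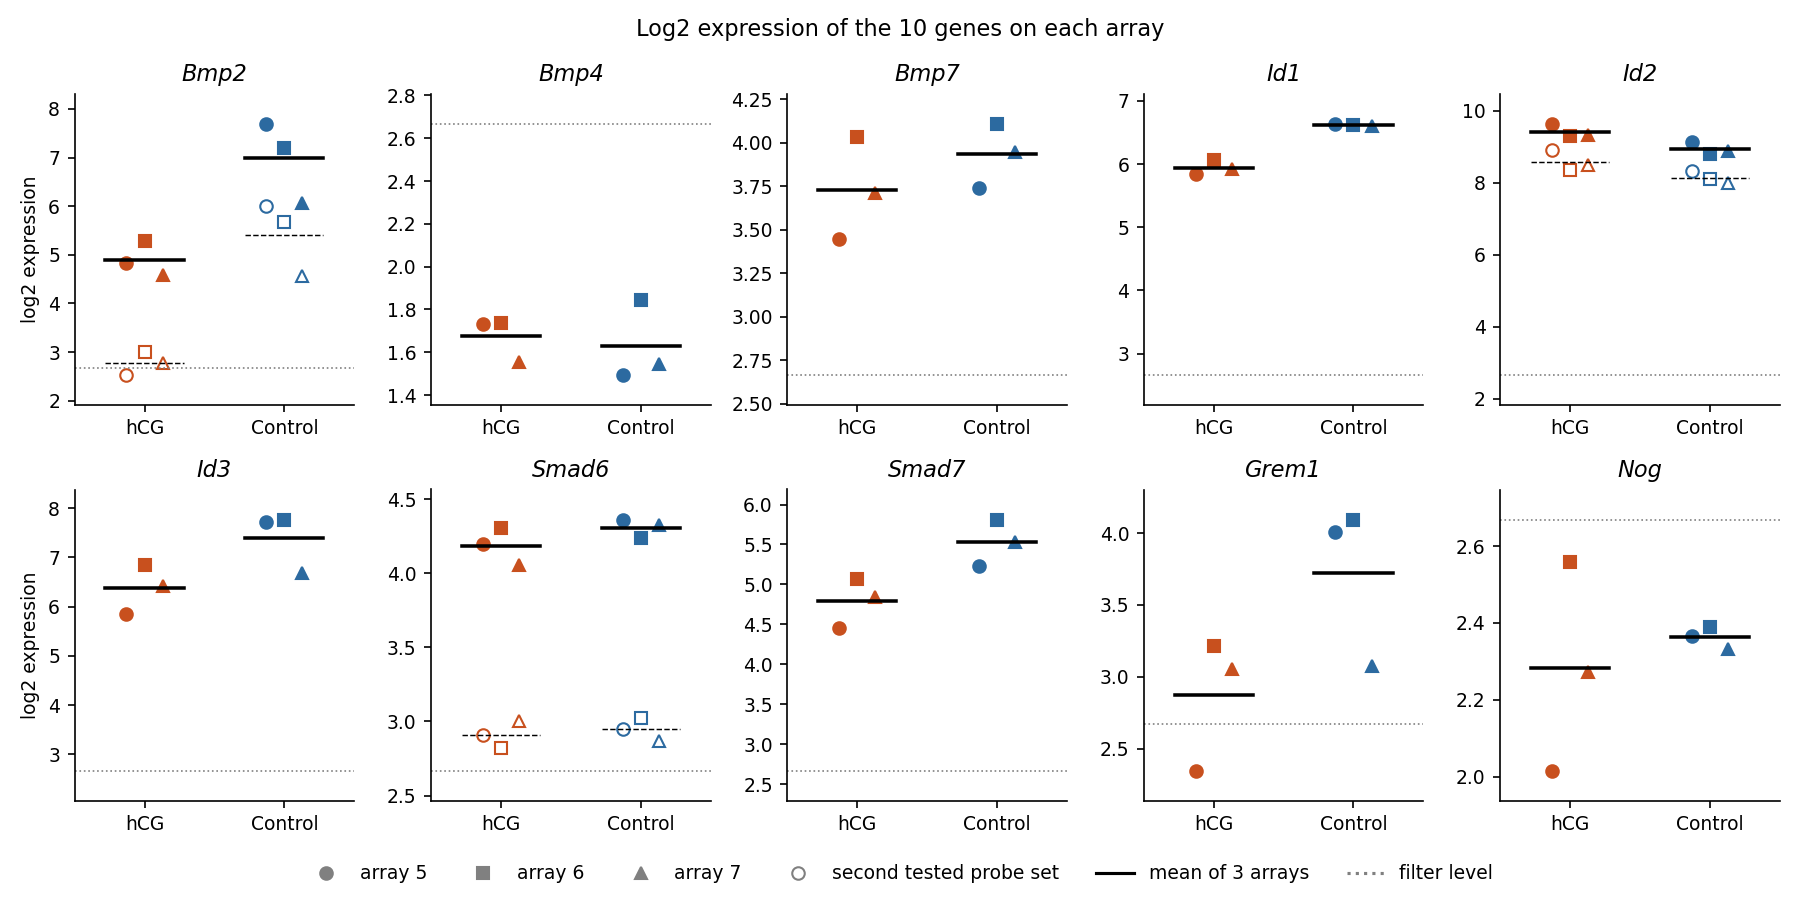
Log2 expression of each gene on each array (vertical axis, scaled per panel), with the 3 hCG arrays left and the 3 Control arrays right, filled symbols for the probe set that stands for the gene, open symbols for a second tested probe set, bars for means and a dotted line at the filter level of 2.67. Both Bmp2 probe sets, Id1 and Smad7 lie lower on every hCG array and both Id2 probe sets lie higher, while the groups overlap for Id3 and Grem1 through Control 7, and Bmp4 and Nog lie below the filter.

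Several features of the arrays moved with the groups. Endothelial markers were higher: 11 of 15 listed markers were tested, 6 were called higher and all 11 had a change above 0. Their mean log2 level relative to the Control mean ran from 1.26 to 1.37 on hCG arrays and from -0.36 to 0.50 on Control arrays. Fibroblast and pericyte marker levels also lay higher without overlap, at 0.21 to 0.45 and 0.34 to 0.57 on hCG arrays against -0.09 to 0.17 and -0.13 to 0.17 on Control arrays. In those lists, 11 of 13 fibroblast markers were tested, with 1 called higher and 1 lower, and 6 of 8 pericyte markers, with 1 called higher. A change above 0 was found in 9 of the 11 fibroblast and 4 of the 6 pericyte markers, so some went the other way. The pericyte marker Abcc9 averaged 3.61 on hCG arrays and 2.59 on Control arrays, the latter below the filter level. Of the epithelial markers, 10 of 12 luminal and 10 of 13 basal ones lay above the filter, and the levels of both lists overlapped between groups. The filter uses the mean over all 6 arrays, so passing it does not show that a marker was present in each group. Luminal levels ran from -0.61 to -0.31 on hCG arrays against -0.72 to 0.58 on Control arrays, with 1 marker called lower. Of the 10 tested luminal markers, 2 had a change above 0. Basal levels ran from 0.47 to 0.71 against -0.66 to 0.51 and overlapped only through Control 7. All 10 tested basal markers had a change above 0, with 0 called. Macrophage levels overlapped, with 4 of 10 markers tested and 0 called. The endothelial markers Cdh5, Tie1, Vwf and Robo4 and the basal marker Trp63 were not among the tested genes. Bacterial poly-A transcripts added before labelling averaged 4.14 ± 0.30 on hCG arrays and 5.07 ± 0.12 on Control arrays (SD, n = 3 each; two-sided p = 0.1 by exact permutation of the arrays, the smallest value 3 against 3 allows). The part of these markers and spikes in the results below was not tested.

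Among the ligands, Bmp2 had the largest difference of the list. Its brightest probe set, 1398270_at, read 4.83, 5.28 and 4.59 on hCG arrays 5, 6 and 7, against 7.70, 7.20 and 6.06 on Control arrays 5, 6 and 7. Every hCG value lay below every Control value, with a gap of 0.79 between the groups, and Control 7 was the lowest control. The log2 change was -2.09 (SE 0.40, 95% interval -3.05 to -1.13, 4.25-fold lower), and it narrowly missed the gene threshold (limma adjusted p = 0.0556). It was the 20th lowest change of the 10424 tested genes. The second Bmp2 probe set, 1368945_at, read 2.54, 2.99 and 2.77 on hCG arrays against 6.00, 5.68 and 4.57 on Control arrays. In it the change was -2.65 (SE 0.35), which passed the test over all 18625 tested probe sets (limma adjusted p = 0.0393), where 1.6% were called. Its hCG values stand near the filter level, so this fold ends at dim signal, and both probe sets read the same RNA. Without Control 7, the lowest control array, the change of the brightest probe set was -2.55 and was called (limma adjusted p = 0.0138). With any other array left out it was not called, at changes of -2.28 to -1.73 and limma adjusted p of 0.0588 to 0.234.

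The other ligands showed less. Bmp7 read 3.45, 4.03 and 3.71 on hCG arrays and 3.74, 4.11 and 3.95 on Control arrays. These ranges overlapped, and the log2 change was -0.20 (95% interval -0.60 to 0.19, limma adjusted p = 0.501). Bmp4 was dim on all 6 arrays, at 1.73, 1.74 and 1.55 on hCG arrays and 1.496, 1.84 and 1.55 on Control arrays, with a log2 difference of 0.05 (95% interval -0.22 to 0.31). At that brightness the array does not show whether Bmp4 was transcribed.

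Id1 fell in hCG spheres by a modest amount with little spread between arrays. Its single probe set, 1387028_a_at, read 5.84, 6.06 and 5.92 on hCG arrays, against 6.64, 6.61 and 6.60 on Control arrays. The Control values lay within 0.04 of each other while the gap to the nearest hCG array was 0.54. The log2 change was -0.68 (SE 0.09, 95% interval -0.89 to -0.48, 1.60-fold lower; limma adjusted p = 0.0341), the 33rd smallest p of all tested genes. The call rested on most arrays together: without hCG 5, hCG 7, Control 5 or Control 6 limma called 0 genes of any kind, and the adjusted p of Id1 lay between 0.0814 and 0.174. Its size hardly moved, at -0.74 to -0.63 with 1 array left out in turn.

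Id3 had a larger mean difference than Id1 and a wider spread. It read 5.86, 6.85 and 6.43 on hCG arrays and 7.72, 7.77 and 6.67 on Control arrays. The groups overlapped because hCG 6 lay above Control 7. The log2 change was -1.01 (SE 0.36, 95% interval -1.85 to -0.16; limma adjusted p = 0.155), and with 1 array left out in turn it ran from -1.36 without Control 7 (limma adjusted p = 0.0531) to -0.75 without hCG 5 (limma adjusted p = 0.374).

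Id2 stood on the other side of 0 from Id1 and Id3. Its brightest probe set, 1375532_at, read 9.64, 9.29 and 9.33 on hCG arrays, against 9.13, 8.80 and 8.89 on Control arrays. All hCG values lay above all Control values, by a gap of 0.17. The log2 change was 0.49 (SE 0.13, 95% interval 0.17 to 0.80) and was not called (limma adjusted p = 0.1001). The second Id2 probe set, 1368870_at, read 8.90, 8.36 and 8.50 on hCG arrays against 8.33, 8.09 and 8.002 on Control arrays, again without overlap but with a gap of only 0.02, and its change was 0.45 (SE 0.16). With each gene set relative to its Control mean, Id2 minus Id1 was 1.49, 0.92 and 1.10 on hCG arrays, against 0.16, -0.13 and -0.03 on Control arrays. This pair was picked for its opposite signs, so its difference is a description with no test.

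**Figure D2:**
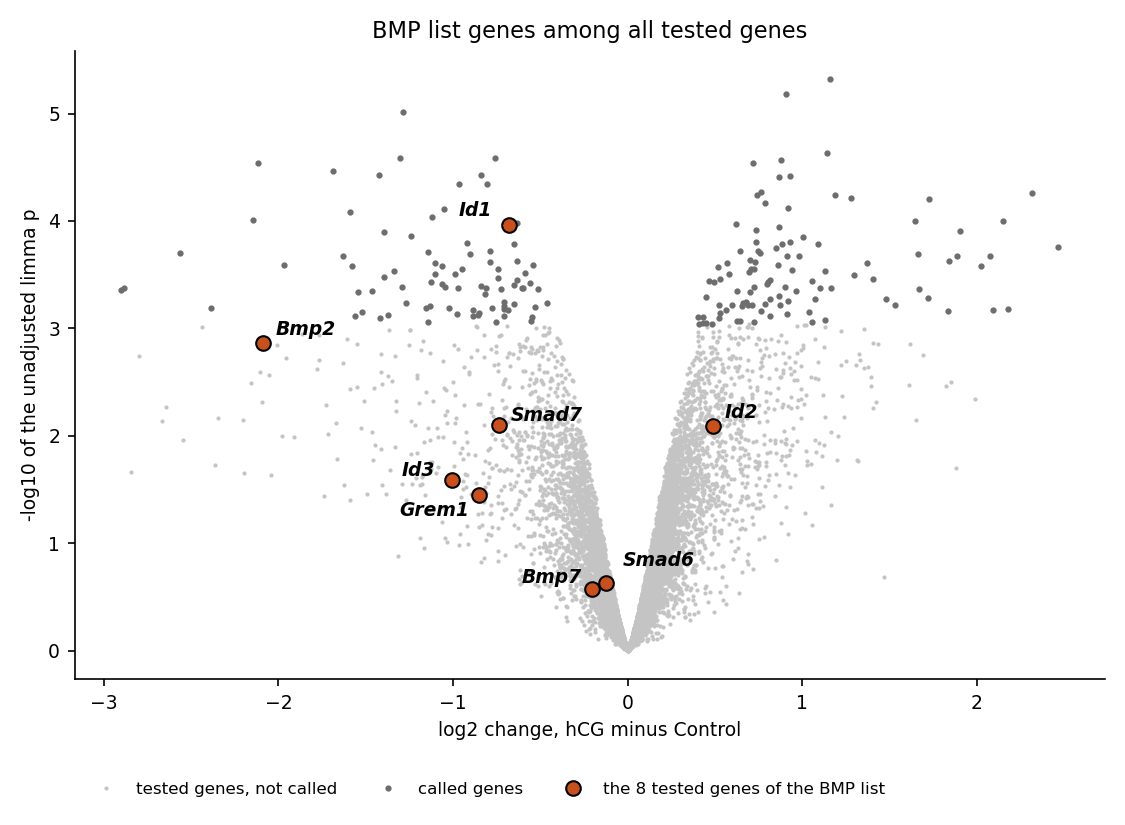
Each point is 1 of 10424 tested genes, with the log2 change (hCG minus Control) on the horizontal axis and -log10 of the unadjusted limma p on the vertical axis. Id1 lies among the called genes at a change of -0.68, Bmp2 lies just under them at -2.09, and Bmp7 and Smad6 lie near the foot of the plot.

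Of the inhibitory Smads, Smad7 averaged lower in hCG spheres and Smad6 did not differ beyond the spread. The brightest Smad7 probe set, 1368896_at, read 4.45, 5.07 and 4.84 on hCG arrays, against 5.23, 5.81 and 5.54 on Control arrays. The groups did not overlap, with a gap of 0.16, and the log2 change was -0.74 (SE 0.20, 95% interval -1.22 to -0.26, 1.67-fold lower; limma adjusted p = 0.0987). Its other probe sets, 1368898_at and 1368897_at, lay below the filter with overlapping groups and log2 differences of -0.12 and 0.01. Smad6 read 4.20, 4.31 and 4.05 on hCG arrays and 4.36, 4.24 and 4.32 on Control arrays, a log2 change of -0.12 (95% interval -0.35 to 0.10; limma adjusted p = 0.466). The 3 further Smad6 probe sets were dimmer, with differences from -0.04 to 0.06 and overlapping groups.

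The antagonist Grem1 followed the same arrays as Id3. It read 2.35, 3.21 and 3.05 on hCG arrays and 4.01, 4.09 and 3.07 on Control arrays. Control 7 lay below hCG 6, so the groups overlapped, and the log2 change was -0.85 (SE 0.33, 95% interval -1.63 to -0.07; limma adjusted p = 0.178). With 1 array left out in turn it ran from -1.18 without Control 7 (limma adjusted p = 0.0591) to -0.59 without hCG 5 (limma adjusted p = 0.415). The hCG mean of 2.87 is close to the filter level, which limits how large a fall could be seen. Nog lay below the filter at 2.02, 2.56 and 2.27 on hCG arrays and 2.37, 2.39 and 2.33 on Control arrays, with a log2 difference of -0.08 (95% interval -0.40 to 0.24).

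Within the groups the same arrays recurred at the ends of the range. The share over all tested genes was not worked out, so the counts describe these members alone. Whole arrays differed too: hCG 6 correlated with the Control arrays at 0.983 to 0.984 and hCG 5 at 0.967 to 0.974 (Pearson r). Among hCG arrays, hCG 6 read highest for 7 of the 8 tested members and hCG 5 lowest for 5 of the 8. Control 7 read lowest of the controls for 4 members, Bmp2, Id1, Id3 and Grem1, and was the highest control for none of the 8. Relative to the Control mean, Control 7 stood at -0.92 for Bmp2, -0.71 for Id3 and -0.65 for Grem1, but at -0.02 for Id1. Control 7 was also the control with the highest level of endothelial (0.50), fibroblast (0.17), pericyte (0.17), luminal (0.58) and basal (0.51) markers. For macrophage markers Control 5 was the highest, at 0.45. The poly-A spike level and the level of hybridisation control transcripts were highest of the 6 arrays on Control 7, at 5.21 and 7.78. That array also had the highest 3′ minus 5′ log2 signal of the 6, a quality measure, at 2.18 for beta-actin and 0.67 for GAPDH. The other arrays lay at 1.46 to 1.75 and at 0.05 to 0.22. The part of these traits in the order of the arrays was not tested. hCG 6 had the highest poly-A spike level of the hCG arrays, 4.49.

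**Figure D3:**
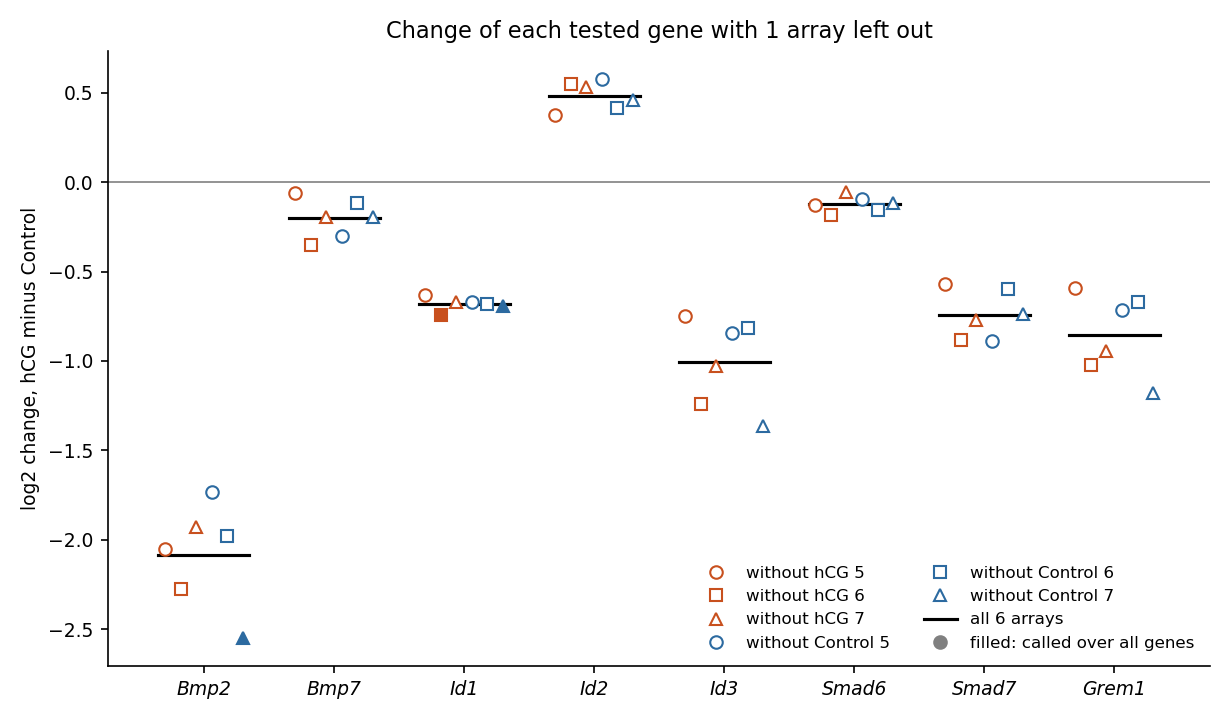
Log2 change (hCG minus Control, vertical axis) of the 8 tested genes with each array left out in turn, orange for an omitted hCG array and blue for an omitted Control array, filled where the gene was then called; black bars give the change with all 6 arrays. Each gene keeps its sign, and Bmp2, Id3 and Grem1 reach their lowest values without Control 7, at -2.55, -1.36 and -1.18.

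Other genes of the pathway gave no call. Of 65 further pathway genes, 12 had no probe set of their own in the annotation used, 17 lay below the filter and 36 were tested. None of the 36 was called by limma, with 10 at an unadjusted p under 0.05; the smallest adjusted p was 0.0778. Without hCG 6 limma called 1 of them, Nbl1. Their changes were split evenly, 18 above 0 and 18 below, with a median of -0.00, and the groups did not overlap in 12 of them, 33.3% against the 31.6% of all tested genes.

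None of the 6 tested receptor genes was called, and 2 had an unadjusted limma p under 0.05. For the type II receptor gene Bmpr2 the log2 change was -0.32 (SE 0.11, adjusted p = 0.156 in limma), with readings of 6.85, 6.96 and 7.06 on hCG arrays against 7.25, 7.45 and 7.12 on Control arrays. Acvr2a and Acvr2b, type II receptors shared with activin, differed by 0.21 and -0.28 on the log2 scale (adjusted p = 0.158 and 0.333, limma). Over the 6 tested receptors the changes ran from -0.32 to 0.21. Among 6 tested coreceptors, Neo1, the neogenin receptor for repulsive guidance molecules, read 6.63, 6.47 and 6.56 on hCG arrays against 6.26, 6.17 and 6.21 on Control arrays, a change of 0.34 (limma adjusted p = 0.0778). Rgma, which presents BMPs to their receptors, had a change of 0.30 (limma adjusted p = 0.0954) and its relative Rgmb one of 0.17 (limma adjusted p = 0.310).

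Of the Smads that carry the signal, Smad1 and the common partner Smad4 averaged higher by 0.29 and 0.26 on the log2 scale (SE 0.08 and 0.08; adjusted p = 0.111 and 0.136, limma), with no overlap between groups in either. For Skil, a Smad corepressor, the change was -0.43 (limma adjusted p = 0.175). Of the 9 other secreted modulators tested, Nbl1, a gremlin relative that binds BMPs, read 6.54, 7.30 and 6.79 on hCG arrays against 7.71, 7.48 and 7.77 on Control arrays. Its log2 change was -0.78 (SE 0.20), with an adjusted p of 0.0859 in limma. The secreted protease gene Htra1 had a change of -0.40 and the BMP-binding protein gene Bmper one of 0.45 (limma adjusted p = 0.180 and 0.207). Bmp6, the only other ligand tested, had a change of -0.07 (limma adjusted p = 0.698).

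Other target genes gave 0 calls of 7 tested, and 0 with non-overlapping groups. Hey1, a repressor that Notch also induces, differed by 0.88 (SE 0.40, adjusted p = 0.238 in limma). Gata3, a transcription factor of luminal cells, had one of -0.64 (limma adjusted p = 0.307). The remaining Id gene, Id4, read 4.49, 4.64 and 4.19 on hCG arrays and 5.48, 4.71 and 4.53 on Control arrays. Its change was -0.47 (95% interval -1.07 to 0.14; limma adjusted p = 0.313).

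**Figure D4:**
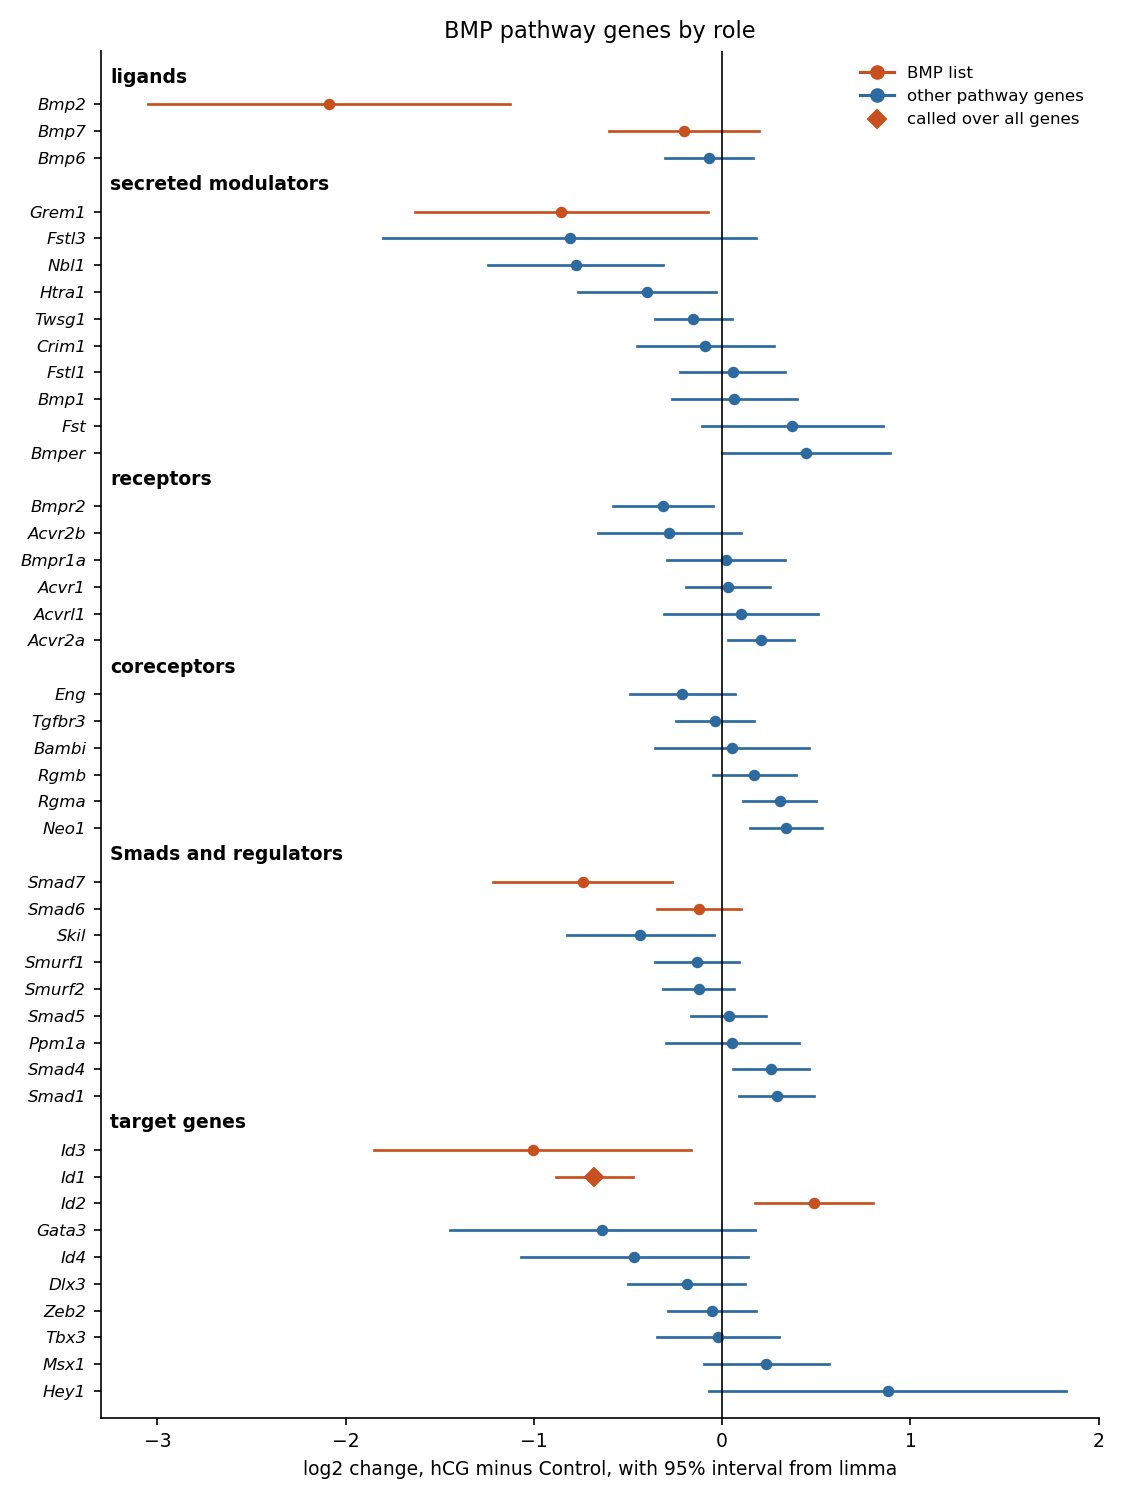
Log2 change (hCG minus Control) with its 95% interval for the 8 tested genes of the BMP list, orange, and the 36 other tested pathway genes, blue, by role; the diamond marks Id1, the gene called over all genes. Bmp2 lies farthest from 0 at -2.09, and receptor changes stay between -0.32 and 0.21.

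Genes with the array pattern nearest to Bmp2 and to Id1 were found by the root mean square difference over the 6 arrays, each gene set relative to its Control mean. Nearest to Bmp2 were Rdh5, a retinol dehydrogenase (0.25), Prss56, a serine protease (0.29), and Il33, an alarmin cytokine (0.32), with log2 changes of -2.09, -2.10 and -1.77 and limma adjusted p of 0.0823, 0.0639 and 0.0582. Il33 read 5.94, 6.59 and 6.32 on hCG arrays against 8.49, 8.47 and 7.19 on Control arrays. Control 7 was the lowest control, which the choice by likeness to Bmp2 favours. Nearest to Id1 were the FGF receptor gene Fgfr1, the lipid kinase gene Pi4k2a and Pgd, an enzyme of the pentose phosphate pathway, at differences of 0.05, 0.06 and 0.06. All 3 were called, with changes of -0.65, -0.63 and -0.63 (limma adjusted p = 0.0368, 0.0382 and 0.0341). Their choice by likeness to a called gene favours such calls, so they are a description.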

How the data were processed

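RNA was labelled by 2-cycle amplification and read on Affymetrix arrays, 3 for hCG and 3 for Control, per the labels' protocols. The authors deposited a table of log2 values for 31099 probe sets. RMA, MAS5 and limma stand in the submitters' processing notes without versions or roles. The log base and normalization are not given in the sources used here and were inferred from the values, whose medians lay between 3.44 and 3.48 on every array. Such values hide a change shared by most genes. The number of arrays limits the precision.

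Groups came from sample titles. The 57 control probe sets and the dimmest 40% of the other 31042, by mean over all arrays, were left out, leaving 18625. Of the 31042, 20826 named 1 gene, 436 several and 9780 none; symbols of 20758 were updated through Entrez numbers with a RefSeq table of GRCr8. The brightest probe set stood for each of 10424 genes. limma 3.58.1 in R 4.3.3 (lmFit, eBayes, two-sided) compared hCG with Control with 4 residual degrees of freedom, adjusted over genes, or over probe sets where stated. The limma test over probe sets was also run on simulated data with independent normal noise, which checks the code and not the noise of these arrays. No pair of arrays held the same values throughout. Members and lists were chosen with earlier results of these data known. Named genes are the 10 members, the 3 smallest p and any call of each pathway list, and the 3 nearest patterns of the members with the largest change and the smallest p. Alternatives were other filters, normalizations, variance settings, array weights, a replicate block, probe-set means and each array left out. A threshold of adjusted p under 0.10 was added after seeing the data. Planned pseudocounts did not apply to log2 values.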

Additional observations from a re-analysis of the deposited data

How the results depend on the processing

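Over all 10424 genes limma called 190, against 306 with a variance trend, 2663 with array weights, 844 at an adjusted p under 0.10, a threshold chosen after seeing the data, and 0 to 584 with 1 array left out. Of the 10 members it called 1, against 2 with a variance trend (Bmp2 and Id1), 2 with probe sets averaged per gene (Bmp2 and Id1), 6 with array weights (Bmp2, Grem1, Id1, Id2, Id3 and Smad7), 3 at the 0.10 threshold (Bmp2, Id1 and Smad7), and 0 to 2 with 1 array left out. Array weights rated hCG 7 at 7.25 and Control 7 at 0.23. The counts of 0 arose without hCG 5, hCG 7, Control 5 or Control 6, where 1455 to 1950 genes had an unadjusted p under 0.05 (2510 on the full set). Without hCG 6 the genes called numbered 338, without Control 7 584, and Bmp2 was then called beside Id1. Of the other pathway genes, 0 were called, against 10 with array weights, 3 at the 0.10 threshold, and 0 to 1 with 1 array left out. With the array number as a replicate block, 118 genes and 2 members (Bmp2 and Smad7) were called and Id1 was not (limma adjusted p = 0.0573). Same-numbered arrays had deviations from their group means that correlated at -0.09, 0.13 and 0.00. hCG 5 and hCG 7 each correlated best with a Control of another number, and hCG 6 with Control 6. Such small correlations from 3 arrays per group cannot decide whether same-numbered arrays were paired, and nothing states that they were. In each of the 8 tested members the change kept its sign under all alternatives run. No filter, a 60% filter, quantile normalization, median centring, cyclic loess, robust eBayes and adjustment over probe sets left Id1 as the member called. With 1 array left out, endothelial marker levels differed by 1.14 to 1.57, basal levels by 0.28 to 0.87 and luminal levels by -0.83 to -0.18 (hCG minus Control). The causes of these shifts were not tested. Dim signal limits Bmp4, Nog and the lower end of Bmp2 and Grem1.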

Other observations

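Of the 17 pathway genes below the filter, 3 had groups that did not overlap, Bmp3, Bmp5 and Hey2, named here after their values were seen. Among all tested genes, which lie above the filter, 31.6% had groups without overlap. The share among all genes below the filter was not worked out. The ligand gene Bmp3 read 1.41, 1.52 and 1.54 on hCG arrays against 1.58, 1.55 and 1.79 on Control arrays, a gap of only 0.013. The ligand gene Bmp5 read 1.48, 1.93 and 1.85 on hCG arrays against 3.74, 2.75 and 2.02 on Control arrays, and Hey2, a relative of Hey1, read 2.64, 2.69 and 2.76 on hCG arrays against 1.79, 2.21 and 2.19 on Control arrays. Tested without a filter, the log2 changes of Bmp3, Bmp5 and Hey2 were -0.15 (SE 0.09), -1.09 (SE 0.39) and 0.63 (SE 0.12), with limma adjusted p over probe sets of 0.489, 0.216 and 0.0644, so none was called.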
